A study of Mus musculus with 10 samples.

Results

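The subunits of the transcription factor AP-1 and 3 further immediate early genes were followed in mouse ear skin. The members were chosen by gene name, with earlier results of these data known: Fos, Fosb, Fosl1, Fosl2, Jun, Junb, Jund, Ier3, Ier5 and Btg2. Of these 10 genes, 9 were listed among the 9779 genes that both deposited expression tables hold, and Fosb was not listed in either. The remaining genes were Fos, Fosl1 and Fosl2 of the FOS family, Jun, Junb and Jund of the JUN family, and Ier3, Ier5 and Btg2. Of the 9, 8 passed the filter on low counts and were tested with 5245 genes in all, and Fosl1 did not pass it.

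The 10 libraries came from C57BL/6 mice aged 6 to 8 weeks. Benzamil with imiquimod was applied in 4 libraries, DMSO with imiquimod in 4, and 2 libraries were from untreated skin; topical treatment lasted 6 days. Imiquimod activates Toll-like receptors and inflames mouse skin in a psoriasis-like way, benzamil is an amiloride analogue that blocks the epithelial sodium channel, and DMSO is its vehicle. The first comparison asks how the members differ with the channel blocker on inflamed skin, and the second how vehicle-treated inflamed skin differs from untreated skin. The groups are called benzamil, DMSO and untreated here. Back skin is named for the untreated control in the series' design, whereas the sample labels give ear skin for all 10 libraries, so a difference of body site cannot be told apart from the treatment in any comparison with untreated skin. No label says that the libraries of a group come from separate mice, so p-values measure the spread between these libraries.

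AP-1 is a dimer of basic leucine zipper proteins. JUN proteins pair with each other or with FOS proteins, whereas FOS proteins need a partner from another family, and the dimers bind the sequence TGANTCA in gene promoters and enhancers. Growth factors, cytokines and stress switch on most of these genes within minutes through MAP kinases, without new protein synthesis, and the products then act on keratinocyte proliferation, differentiation and cytokine genes. In mouse epidermis, joint deletion of Junb and Jun is known to cause a psoriasis-like disease.

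The libraries were shallow and of unequal depth. Reads in the 9779 genes numbered 138440 to 375455 per library with benzamil, 259262 to 935714 with DMSO, and 74614 and 71144 in untreated skin. One read was therefore worth 2.87 to 7.53 CPM (counts divided by the library's scaled total) with benzamil, 0.985 to 3.48 CPM with DMSO, and 12.8 and 14.1 CPM in untreated skin. A count of 0 allows up to 3 reads, which is 8.62 to 22.6 CPM with benzamil, 2.95 to 10.5 CPM with DMSO, and 38.3 and 42.3 CPM in untreated skin. CPM values are scaled by edgeR's TMM method throughout, and errors are SD over libraries for levels and SE for log2 fold changes. Ribosomal RNA genes took 31.0% to 45.7% of reads with benzamil, 22.1% to 28.8% with DMSO, and 34.2% and 38.6% in untreated skin. Leaving these genes out of the library totals changed none of the members' calls.

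Promoter sequences are shown for 5 members whose levels behave differently below: Junb, Ier5 and Btg2, which differ between groups, and Jun and Fos, which did not pass the test in any comparison. Each is the 250 bases before the annotated start in RefSeq (GRCm38.p6), 5′ to 3′ on the gene's strand, with motif matches in capitals. The table held an entry for 9 of the 10 members and not for Fosl1.
Junb, chr8:84978749-84978998, minus strand: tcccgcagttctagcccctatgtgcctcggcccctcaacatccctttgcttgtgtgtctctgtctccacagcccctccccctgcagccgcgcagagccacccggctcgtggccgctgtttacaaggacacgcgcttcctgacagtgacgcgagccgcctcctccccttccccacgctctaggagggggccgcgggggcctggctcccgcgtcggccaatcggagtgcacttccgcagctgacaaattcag
Ier5, chr1:155099637-155099886, minus strand: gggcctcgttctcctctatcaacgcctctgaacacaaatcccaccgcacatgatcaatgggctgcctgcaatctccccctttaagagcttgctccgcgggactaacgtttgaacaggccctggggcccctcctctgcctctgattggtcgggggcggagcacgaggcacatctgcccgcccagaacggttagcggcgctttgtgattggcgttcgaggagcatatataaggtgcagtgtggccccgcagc
Btg2, chr1:134079156-134079405, minus strand: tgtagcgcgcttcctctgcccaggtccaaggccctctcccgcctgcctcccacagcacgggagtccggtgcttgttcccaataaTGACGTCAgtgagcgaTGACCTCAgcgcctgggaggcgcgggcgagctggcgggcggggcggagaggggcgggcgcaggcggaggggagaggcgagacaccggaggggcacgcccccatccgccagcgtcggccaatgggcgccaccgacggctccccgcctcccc
Jun, chr4:95052223-95052472, minus strand: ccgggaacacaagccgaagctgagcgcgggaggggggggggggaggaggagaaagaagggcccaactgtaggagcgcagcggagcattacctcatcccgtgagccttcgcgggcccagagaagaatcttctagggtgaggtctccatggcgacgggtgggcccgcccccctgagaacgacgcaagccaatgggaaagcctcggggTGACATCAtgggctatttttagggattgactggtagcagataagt
Fos, chr12:85473640-85473889, plus strand: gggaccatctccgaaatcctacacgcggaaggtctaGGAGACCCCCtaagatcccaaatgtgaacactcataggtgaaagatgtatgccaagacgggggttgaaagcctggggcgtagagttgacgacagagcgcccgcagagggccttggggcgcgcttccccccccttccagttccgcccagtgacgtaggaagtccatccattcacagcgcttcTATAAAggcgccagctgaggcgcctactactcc
The letters searched on both strands were TGANTCA and TGANNTCA, known as AP-1 and CRE-like motifs, the CArG box, TATAAA and an NF-kB site. TGANTCA was in none of the members' windows and in 6.75% of the 32842 mouse promoter windows of the same length. TGANNTCA was in 11.9% of all windows. Jun had TGACATCA at positions -45 to -38 from its start, and Btg2 had TGACGTCA at -166 to -159 and TGACCTCA at -150 to -143. Fos had TATAAA at -33 to -28, a motif in 12.4% of all windows, and an NF-kB-type match at -214 to -205, a motif in 3.89%. Among the members not shown, Fosb, Fosl2 and Ier3 also held NF-kB-type matches, that of Ier3 at -92 to -83. Jund held TGAAATCA at -61 to -54. These positions count from RefSeq starts, whereas the gene spans given below come from another annotation. The Jund window (chr8:70697489-70697738) does not reach the gene span given below. The Fosl2 window (chr5:32136222-32136471) lies inside its span. The CArG box, in 1.47% of windows, matched no member. Junb and Ier5 held no match to any of the 5 motifs. A match is a description of letters and was not tested for binding.

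With benzamil, Junb, Fosl2, Ier5 and Ier3 fell relative to DMSO, and Jun, Jund, Fos and Btg2 did not pass the test. In edgeR's quasi-likelihood test, adjusted by the Benjamini-Hochberg method over 5245 genes with 0.05 as the threshold, 4 of 8 tested members were lower with benzamil and 0 were higher. Over all genes tested, 12.1% were called lower and 9.91% higher. At an unadjusted p under 0.05, 5 members were lower and 0 higher, against 18.4% and 16.9% of all genes tested. The members' median log2 fold change was -0.95, against -0.01 over all genes tested. As the members were chosen with earlier results of these data known, the counts describe them and are no test of the group.

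**Figure D1:**
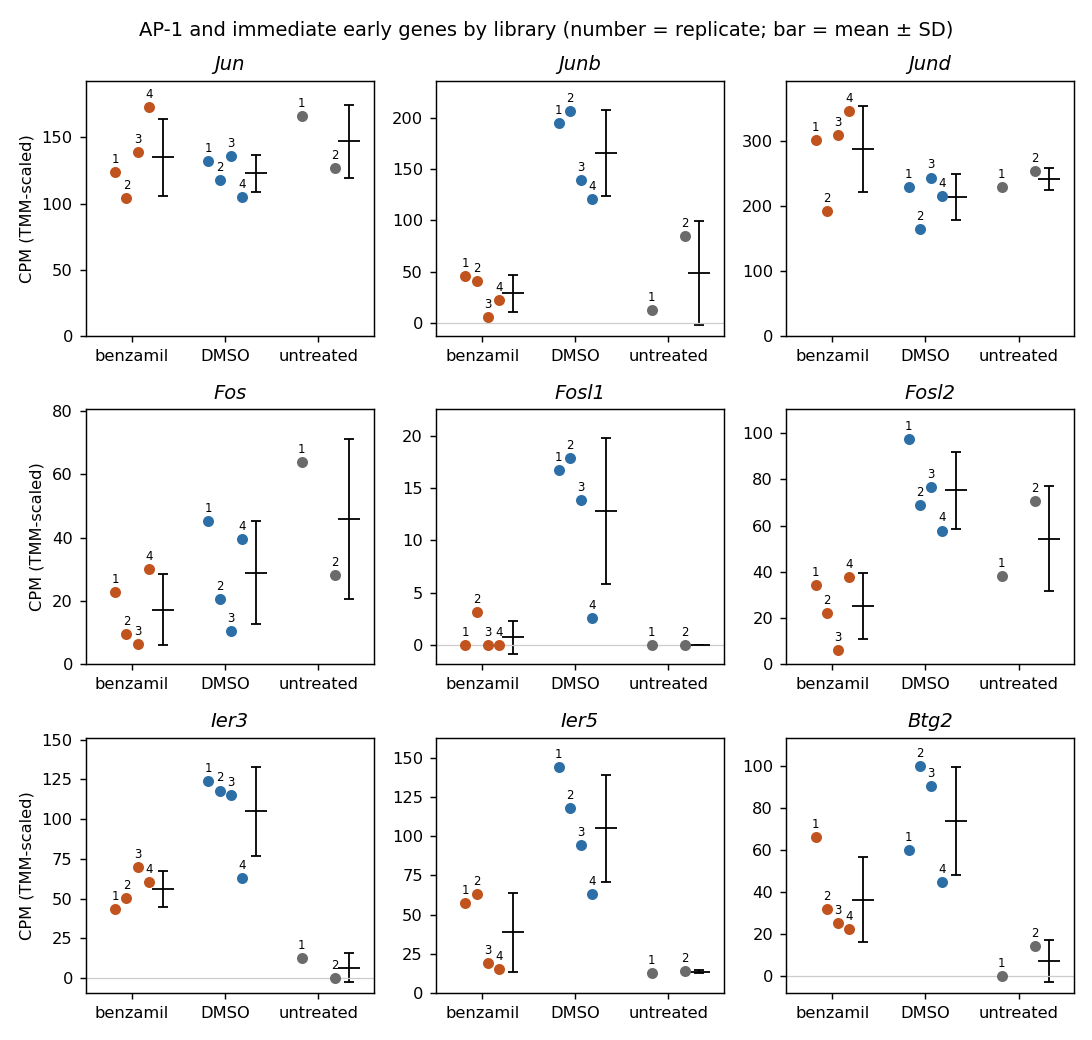
Level of each of the 9 members in each library, in TMM-scaled CPM with an axis of its own for each gene, with benzamil, DMSO and untreated libraries from left to right. Each numbered point is 1 library, and the bar beside a group is its mean ± SD. Junb and Fosl2 lie lower in all 4 benzamil libraries than in all 4 DMSO libraries, while the Jun levels of the groups overlap.

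Junb, on chromosome 8 (84974484 to 84978718, minus strand, mm10), encodes a JUN protein that is less active as a transactivator than JUN and that restrains epidermal cytokine production in mice. It had 46.0, 41.1, 6.32 and 22.6 CPM with benzamil, against 195, 207, 139 and 121 CPM with DMSO; untreated skin had 12.8 and 84.6 CPM. Every benzamil library lay below every DMSO library, while the untreated libraries, with 1 and 6 reads, lay far apart. The mean was 29.0 ± 18.2 CPM with benzamil and 166 ± 42.0 CPM with DMSO (SD, n = 4 each). This was a log2 fold change of -2.31 ± 0.34 (edgeR adjusted p = 3.68e-05). Of the 5245 genes tested, Junb ranked 37 by p-value. Its fold change stayed between -2.64 and -2.10 on leaving out each library in turn, with the call kept in all 8 fits. The annotation of Junb overlaps Prdx2 on the opposite strand, and whether counting used strand is not given in the sources used here. Fosl1, Jun and Jund overlap Ccdc85b, Junos and Gm11175 in the same way, genes that are not listed in the joined tables. Prdx2, a peroxiredoxin, moved the other way: it had 293 ± 51.9 CPM with benzamil and 192 ± 25.7 CPM with DMSO (SD, n = 4 each), a log2 fold change of 0.60 ± 0.21 (edgeR adjusted p = 0.0421).

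Jun (chromosome 4, 95049034 to 95052222, minus strand) is the founding partner of AP-1 and the strongest transactivator of its family. It had 124, 104, 139 and 173 CPM with benzamil, against 132, 118, 136 and 105 CPM with DMSO; untreated skin had 166 and 127 CPM. The libraries of the groups overlapped. The log2 fold change with benzamil was 0.08 ± 0.22 (edgeR adjusted p = 0.823), and it lay between -0.16 and 0.18 over all alternatives, so that no direction can be given.

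Jund (chromosome 8, 70698949 to 70700616, plus strand) is the least inducible JUN gene and is expressed broadly. It had 302, 193, 310 and 346 CPM with benzamil, against 230, 164, 244 and 216 CPM with DMSO; untreated skin had 230 and 254 CPM. The benzamil and DMSO values overlapped. The log2 fold change was 0.40 ± 0.21 (edgeR adjusted p = 0.168). Within the JUN family, reads of Junb per read of Jun were 0.372, 0.394, 0.0455 and 0.130 with benzamil, against 1.48, 1.76, 1.03 and 1.15 with DMSO and 0.0769 and 0.667 in untreated skin. Every DMSO library had more Junb than Jun reads, and each of the others had fewer.

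Fosl2 (chromosome 5, 32135801 to 32157842, plus strand) encodes FRA-2, a FOS protein without the strong transactivation domain of FOS. Its levels were 34.5, 22.2, 6.32 and 37.6 CPM with benzamil, against 97.5, 69.1, 76.7 and 57.9 CPM with DMSO; untreated skin had 38.3 and 70.5 CPM. All benzamil libraries lay below all DMSO libraries. The untreated values came from 3 and 5 reads. The lower of them, 38.3 CPM, and the highest benzamil value, 37.6 CPM, differed by less than 1 untreated read is worth. The mean was 25.2 ± 14.2 CPM with benzamil and 75.3 ± 16.7 CPM with DMSO (SD, n = 4 each), a log2 fold change of -1.57 ± 0.35 (edgeR adjusted p = 0.00231). On leaving out each library it stayed between -1.85 and -1.36, with the call kept in all 8 fits.

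Fos (chromosome 12, 85473890 to 85477273, plus strand), the classical early-response partner of JUN, was low. It had 8, 3, 1 and 4 reads with benzamil, which were 23.0, 9.50, 6.32 and 30.1 CPM. With DMSO it had 46, 8, 3 and 15 reads, which were 45.3, 20.5, 10.5 and 39.5 CPM, and in untreated skin 5 and 2 reads, or 63.9 and 28.2 CPM. The groups overlapped, and the log2 fold change with benzamil was -0.92 ± 0.50 (edgeR adjusted p = 0.19).

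Fosl1 (chromosome 19, 5447547 to 5455946, plus strand) encodes FRA-1, a FOS protein found in proliferating and migrating epithelium. It had 0, 1, 0 and 0 reads with benzamil, against 17, 7, 4 and 1 reads with DMSO; untreated skin had 0 and 0. The DMSO levels were 16.7, 17.9, 13.9 and 2.63 CPM, so the lowest of them lay just below the 3.17 CPM of the second benzamil library. The ratio of summed reads, benzamil over DMSO and scaled for depth, was 0.0749 with a 95% interval of 0.00183 to 0.452 that covers counting error only. An exact two-sided permutation test over libraries gave p = 0.0571, where the smallest p that 4 against 4 allows is 0.0286. With no filter on low counts Fosl1 would have been called lower (log2 fold change -3.30, edgeR adjusted p = 0.0203), and the authors' deposited table gives it no adjusted p. Both untreated libraries had 0 reads, which allows 38.3 and 42.3 CPM, more than any DMSO library, so no fold against untreated skin is given.

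Ier3 (chromosome 17, 35821684 to 35822923, plus strand), a stress-inducible gene under NF-kB and p53 control that acts on cell survival, had 43.1, 50.6, 69.6 and 60.2 CPM with benzamil. It had 124, 118, 115 and 63.2 CPM with DMSO, and 12.8 and 0 CPM in untreated skin. The benzamil values overlapped the DMSO values through the fourth DMSO library alone. The log2 fold change with benzamil was -0.99 ± 0.29 (edgeR adjusted p = 0.0163). The call was lost without the first benzamil library (adjusted p = 0.076) and without the first DMSO library (adjusted p = 0.067), within a range of 0.0035 to 0.076 over all alternatives.

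Ier5 (chromosome 1, 155096361 to 155099636, minus strand), which encodes a nuclear protein that promotes heat shock factor activity, had 57.5, 63.3, 19.0 and 15.1 CPM with benzamil, against 144, 118, 94.1 and 63.2 CPM with DMSO; untreated skin had 12.8 and 14.1 CPM. The second benzamil library just exceeded the lowest DMSO library. Its log2 fold change with benzamil was -1.25 ± 0.33 (edgeR adjusted p = 0.00848), and without the first DMSO library the call was lost (-1.01, adjusted p = 0.0556; range over all alternatives 0.00283 to 0.0556).

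Btg2 (chromosome 1, 134075170 to 134079120, minus strand), an antiproliferative gene that is a target of p53 and recruits the mRNA deadenylation machinery, had 66.1, 31.7, 25.3 and 22.6 CPM with benzamil. It had 60.1, 99.9, 90.6 and 44.7 CPM with DMSO, and 0 and 14.1 CPM in untreated skin. The first benzamil library lay above 2 of the 4 DMSO libraries. The log2 fold change was -0.82 ± 0.35 (edgeR adjusted p = 0.0977). It passed the threshold without the first benzamil library (-1.39, adjusted p = 0.0274), with library totals alone as scaling (-1.06, adjusted p = 0.034), and in limma on the deposited log2 values (-0.60, adjusted p = 0.0407), within a range of 0.0274 to 0.259 over all alternatives.

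The authors' deposited table gives the same 4 members an adjusted p under 0.05. Its log2 fold changes, benzamil over DMSO, were -1.96 for Junb, -1.25 for Fosl2, -1.06 for Ier5 and -0.85 for Ier3. Without the first DMSO library, the deepest of the series, 2 of the 8 tested members were called. Of the 8 tested members, 2 had benzamil libraries all below the DMSO libraries, against 13.4% of all genes tested.

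**Figure D2:**
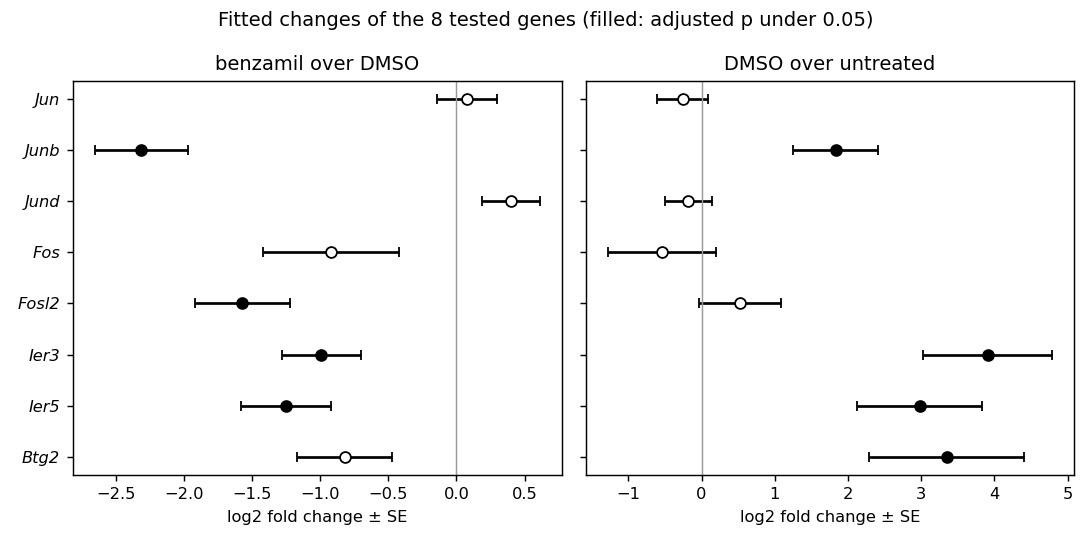
Log2 fold change of each tested member from edgeR's fit, with bars of 1 standard error, for benzamil over DMSO in the left panel and DMSO over untreated in the right; filled points passed an adjusted p of 0.05. Junb, Fosl2, Ier5 and Ier3 lie left of 0 in benzamil over DMSO, and Ier3, Btg2, Ier5 and Junb lie right of 0 in DMSO over untreated.

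Relative to untreated skin, Ier3, Btg2, Ier5 and Junb rose with DMSO and imiquimod, and Jun, Jund, Fos and Fosl2 did not pass the test. Thus 4 of 8 tested members were higher and 0 lower, against 9.88% and 8.48% of all genes tested. The same 4 were higher and 0 lower at an unadjusted p under 0.05, against 18.8% and 14.5% of all genes tested. The members' median log2 fold change was 1.18, against 0.18 over all genes tested. This comparison shares its 4 DMSO libraries with the one above, so a member that is high in those libraries counts in both, and the values are given side by side only.

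Ier3 had 105 ± 28.1 CPM with DMSO (SD, n = 4) and 12.8 and 0 CPM in untreated skin, a log2 fold change of 3.91 ± 0.88 (edgeR adjusted p = 0.00303). As only 1 read was seen in untreated skin against 229 with DMSO, the ratio of 16.5 has a counting interval of 2.93 to 654. Its call was kept in all 6 fits that left out 1 library, with a log2 fold change of 3.05 without the second untreated library; without the first, no untreated read was left. Btg2 had 73.8 ± 25.8 CPM with DMSO (SD, n = 4), from 143 reads against 1 read in untreated skin, a ratio of 10.3 (1.82 to 409) and a log2 fold change of 3.35 ± 1.06 (edgeR adjusted p = 0.0291). Outside the DMSO libraries, Btg2 reached the level of the filter on low counts in the first benzamil library alone. It therefore needed the DMSO libraries, where it was high, to be tested at all. For Ier5 the mean was 105 ± 34.3 CPM with DMSO (SD, n = 4), from 243 reads against 2 reads in untreated skin, a ratio of 8.74 (2.39 to 72.6) and a log2 fold change of 2.98 ± 0.85 (edgeR adjusted p = 0.0155). All 4 DMSO libraries lay above both untreated libraries for each of these genes.

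Junb had 166 ± 42.0 CPM with DMSO (SD, n = 4) and 48.7 CPM on average in untreated skin, where its 2 libraries, at 12.8 and 84.6 CPM, had the largest difference in CPM of all members, though not the largest relative to the mean. The log2 fold change was 1.83 ± 0.58 (edgeR adjusted p = 0.0288). Its value hung on which untreated library was used: 0.99 (adjusted p = 0.315) without the first and 3.71 (adjusted p = 0.018) without the second. The call was also lost without the first DMSO library (adjusted p = 0.0515) and without the second (adjusted p = 0.0535). Ier5 lost its call without the first or the second untreated library (adjusted p = 0.123 and 0.0795), while its log2 fold change stayed at 2.91 and 3.08. Btg2 also lost its call without either (0.212 and 0.0523) and in DESeq2 (0.0976), and its log2 fold change was 2.32 without the first and 7.65 without the second, where no untreated read was left and the fitted value is no bound. In limma on the deposited log2 values the changes were smaller in size, 2.12 for Ier3, 1.74 for Btg2 and 1.59 for Ier5. Over all alternatives the adjusted p ran between 0.00897 and 0.315 for Junb, 0.00285 and 0.123 for Ier5, 0.00926 and 0.212 for Btg2, and 0.00072 and 0.0453 for Ier3.

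The members that did not pass the test had log2 fold changes, DMSO over untreated, of 0.53 ± 0.56 for Fosl2 (edgeR adjusted p = 0.539), -0.18 ± 0.32 for Jund (0.731), -0.26 ± 0.35 for Jun (0.641) and -0.54 ± 0.74 for Fos (0.642). Of the 8 tested members, 4 had DMSO libraries all above the untreated libraries, against 29.3% of all genes tested. In the authors' deposited table, coded as untreated over DMSO, Junb had a log2 fold change of -1.67 with an adjusted p of 0.0368, and Ier5, Ier3 and Btg2 had adjusted p-values of 0.0508, 0.0557 and 0.11.

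Set against untreated skin, no member passed the test with benzamil and imiquimod. In edgeR 0 of 8 were called, and 0 in DESeq2, while 2.44% of all genes tested were called higher and 1.6% lower in edgeR. At an unadjusted p under 0.05, 2 members were higher, Ier3 and Btg2, against 11.6% of all genes tested. The log2 fold changes were 2.92 ± 1.02 for Ier3 (edgeR adjusted p = 0.104), 2.53 ± 1.20 for Btg2 (0.25) and 1.72 ± 1.00 for Ier5 (0.355). For the AP-1 genes they were 0.23 ± 0.32 for Jund (0.741), -0.18 ± 0.36 for Jun (0.837), -0.49 ± 0.74 for Junb (0.764), -1.04 ± 0.67 for Fosl2 (0.408) and -1.46 ± 0.85 for Fos (0.356). Leaving out 1 untreated library turned the direction of Junb, at -1.32 without the first and 1.38 without the second, and that of Jun, at 0.04 and -0.34. Ier3 was at 2.04 without the second untreated library and Btg2 at 1.51 without the first; without the other library neither had an untreated read left. Fosl2 was at -1.43 and -0.55, and Fos at -0.74 and -1.90, without the first and the second. The standard errors of Ier3, Btg2 and Ier5, each with 1 or 2 reads in untreated skin, were 1.00 to 1.20.

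The make-up of the AP-1 reads was described next, as shares of the summed reads of Fos, Fosl1, Fosl2, Jun, Junb and Jund in a library. These reads numbered 184, 118, 74 and 81 with benzamil, 728, 233, 178 and 206 with DMSO, and 40 and 40 in untreated skin. Libraries of this kind give about 1 fragment per transcript, so reads of different genes can be set side by side without dividing by length. Junb took 8.70%, 11.0%, 1.35% and 3.70% with benzamil, against 27.2%, 34.8%, 22.5% and 22.3% with DMSO and 2.5% and 15% in untreated skin. Every DMSO library had a larger Junb share than any other library. Jund was the largest share on average in each group, at 57.9 ± 6.04% with benzamil and 34.7 ± 5.95% with DMSO (SD, n = 4 each), and 45.0% in each untreated library. Jun took 27.4%, 19.9% and 27.5% on average with benzamil, with DMSO and in untreated skin, and Fosl2 4.99%, 12.1% and 10.0%. The shares are of a fixed total, so a smaller Junb share makes the others larger.

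**Figure D3:**
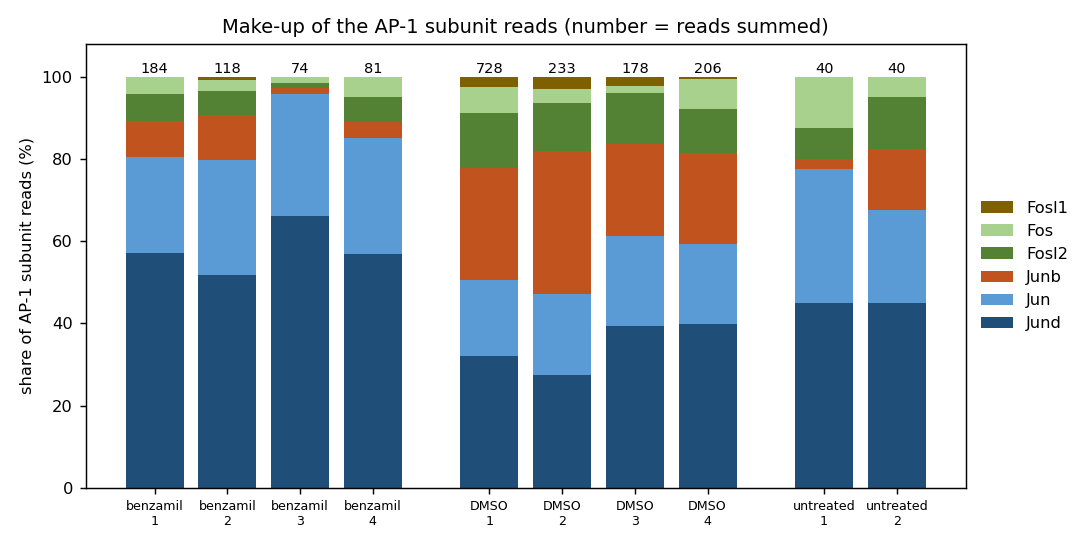
Share of each AP-1 subunit gene in the AP-1 reads of each library, in percent, with benzamil, DMSO and untreated libraries from left to right. The Junb part spans 22.3% to 34.8% in the DMSO libraries and 1.35% to 11.0% in the benzamil libraries, while Jund fills the largest part on average.

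The FOS subunits together had 57.5, 34.8, 12.6 and 67.8 CPM with benzamil, against 160, 108, 101 and 100 CPM with DMSO; untreated skin had 102 and 98.7 CPM. All benzamil libraries were below all DMSO libraries, and the untreated libraries were near the lower DMSO libraries. By level within a group, Jund and Jun led with benzamil, followed by Ier3, Ier5, Btg2, Junb, Fosl2, Fos and Fosl1. With DMSO the order was Jund, Junb, Jun, Ier3, Ier5, Fosl2, Btg2, Fos and Fosl1. In untreated skin it was Jund, Jun, Fosl2, Junb, Fos, Ier5, Btg2, Ier3 and Fosl1. With DMSO, each gene's range of libraries overlapped that of the next in order; with benzamil, the steps that did not overlap were Jund over Jun, Jun over Ier3, and Fos over Fosl1.

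Genes of like pattern were sought by the root-mean-square difference between log2(CPM + 1) profiles standardised over the 10 libraries, in which 0 is identity. Nearest to Junb were Vdac2 (0.21), Eif3i (0.22) and Rack1 (0.23), and the nearest member was Fosl2 (0.54); the median over all genes was 1.37. Nearest to Ier3 were Hspe1 (0.14), the epidermal cytokine gene Il36a (0.15) and Immt (0.18), and nearest to Btg2 were Numb (0.16), Ostf1 (0.19) and Tnfaip2 (0.20). Ier5 was nearest to Eif5a (0.19), Rbbp4 (0.20) and P4hb (0.25), and Fosl2 to Ergic2 (0.28), Ube2a (0.32) and Hnrnpl (0.33). Jun and Jund had more distant nearest genes, Med19 (0.47) and Abhd17c (0.48). The mean profile of the tested members was nearest to Il19 (0.35), Lce3b (0.40) and Il1b (0.43). These profiles share their 10 libraries and 3 groups. Ier3 and Btg2 each had 0 reads in 1 untreated library, a value far from the others on this scale that weighs heavily in their distances. Among their nearest genes, Immt, Numb and Ostf1 did not pass the test in benzamil over DMSO (edgeR adjusted p = 0.437, 0.149 and 0.0527). Hspe1, Il36a and Tnfaip2 passed it (0.0264, 0.000679 and 0.00196).

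Other genes of the same pathway were taken from lists. Of 20 tested other immediate early genes, 5 were lower with benzamil than with DMSO and 0 higher, which was 25% and 0% of the list, against 12.1% and 9.91% of all genes tested. At an unadjusted p under 0.05 there were 6 of 20, against 35.3% of all genes tested, and the list's median log2 fold change was -0.49, against -0.01. Tiparp, an ADP-ribosyltransferase gene induced through the aryl hydrocarbon receptor, had 45.5 ± 19.7 CPM with benzamil and 140 ± 30.5 CPM with DMSO (SD, n = 4 each), a log2 fold change of -1.53 ± 0.28 (edgeR adjusted p = 0.000386). Phlda1 fell by 1.64 on the log2 scale (edgeR adjusted p = 0.0065). Klf10, Egr3 and Zfp36l1 fell by 1.15, 0.94 and 0.62 (edgeR adjusted p = 0.0369, 0.0252 and 0.0265). Klf10 lost its call without benzamil library 1, 2 or 4 or DMSO library 1 or 2 (adjusted p 0.0579 to 0.12). Egr3 lost its call without benzamil library 1 or 3 or DMSO library 1 or 3 (0.0598 to 0.0901), and Zfp36l1 without benzamil library 4 or DMSO library 1 or 2 (0.0688 to 0.0784). The growth-factor response gene Egr1, with 142 ± 87.9 CPM with benzamil and 231 ± 74.6 CPM with DMSO (SD, n = 4 each), did not pass the test (log2 fold change -0.82 ± 0.31, edgeR adjusted p = 0.0608). Relative to untreated skin, 2 of these 20 genes, Tiparp and Egr3, were higher with DMSO and 1, Zfp36l2, was lower, shares of 10% and 5% against 9.88% and 8.48% of all genes tested. Tiparp lost this call without the first untreated library (adjusted p = 0.0829), and Egr3 lost it without any 1 of DMSO libraries 1 to 3 or either untreated library (0.0535 to 0.185), in DESeq2 (0.0895) and with only the DMSO and untreated libraries fitted (0.0517).

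Of 27 tested genes of the MAP kinase cascade, which switches on the members, 1 was higher with benzamil than with DMSO and 4 were lower. These are 3.7% and 14.8% of the list, and the lower share is near the 12.1% of all genes tested; the list's median was -0.35, against -0.01. The lower genes included Dusp7 and Dusp6, phosphatases that switch off ERK and are themselves induced by it. Dusp7 had 25.5 ± 10.6 CPM with benzamil and 134 ± 27.2 CPM with DMSO (SD, n = 4 each), a log2 fold change of -2.28 ± 0.33 (edgeR adjusted p = 3.68e-05). Dusp6 had 6.68 ± 7.50 CPM with benzamil and 50.6 ± 19.1 CPM with DMSO (SD, n = 4 each), a log2 fold change of -2.66 ± 0.51 (edgeR adjusted p = 0.000569) that was -3.91 without the first benzamil library. Dusp6 had 8 reads with benzamil and 3 in untreated skin, and it passed the filter on low counts through the DMSO libraries alone. Egfr, an epidermal growth factor receptor gene, was lower at -1.19 (edgeR adjusted p = 0.0148), and Mapk13, a p38 kinase gene, was higher at 1.55 (0.0018). Egfr lost its call without the first or the third benzamil library (adjusted p = 0.0727 and 0.0511). Relative to untreated skin, 3 of the 27 genes were higher with DMSO, among them Dusp7, and 1 was lower. These shares of 11.1% and 3.7% compare with 9.88% and 8.48% of all genes tested. Dusp7 lost this call without the first untreated library (adjusted p = 0.135).

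Among 15 tested other basic leucine zipper genes of the ATF and CREB, MAF, CNC and C/EBP families, 1 was higher with benzamil than with DMSO and 2 were lower. These are 6.67% and 13.3% of the list, near the 9.91% and 12.1% of all genes tested, and the median was -0.07. No gene of the ATF or MAF families passed the test. Nfe2l2, which encodes the oxidative stress factor NRF2, had a log2 fold change of -1.06 ± 0.22 (edgeR adjusted p = 0.00113) and Cebpb, a factor of keratinocyte differentiation and inflammation, -0.96 ± 0.24 (0.0054). Nfe2l1 was higher at 0.63 ± 0.20 (edgeR adjusted p = 0.0237), a call lost without benzamil library 1, 2 or 3 or DMSO library 2 or 3 (adjusted p 0.0539 to 0.0688), with no filter (0.0684) and with library totals alone (0.187). Of 21 tested genes known to carry AP-1 sites, 10 were lower and 3 higher, which is 47.6% and 14.3% of the list against 12.1% and 9.91% of all genes tested, with a median of -0.84. Il1b, S100a9, Tgm1 and S100a8 had log2 fold changes of -3.26, -3.25, -3.14 and -3.09, while Flg, Hmox1 and Lor were higher. Leaving out 1 library moved some of these sizes: Il1b was at -4.12 without the first benzamil library, and S100a8 at -4.24 and S100a9 at -3.87 without the fourth. With the replicate number as a block, S100a8 was at -4.02 and S100a9 at -3.87. In limma on the deposited log2 values, Il1b and Tgm1 were at -1.33 and -1.21. Relative to untreated skin, 11 of these 21 genes were higher with DMSO and 1 lower. These shares of 52.4% and 4.76% compare with 9.88% and 8.48% of all genes tested, and the median was 1.54 against 0.18. This list was chosen with earlier results of these data known, so its shares describe the list and cannot test an effect on AP-1 targets. Il1b and Tgm1 had 6 and 5 reads with benzamil and 0 and 1 in untreated skin. They passed the filter on low counts through the DMSO libraries alone.

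**Figure D4:**
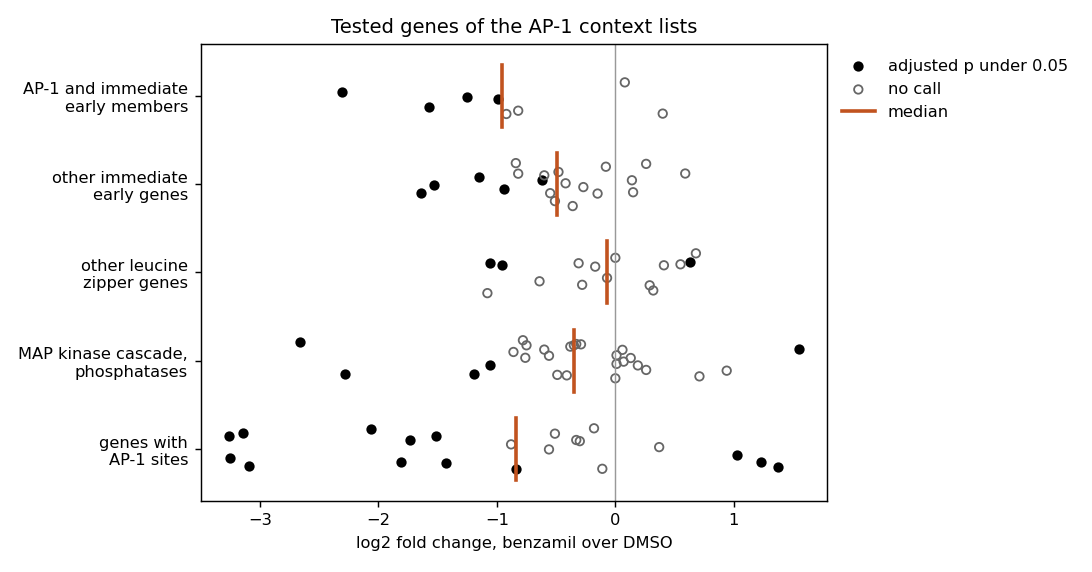
Log2 fold change, benzamil over DMSO, of each tested gene in the list of members and in the 4 other lists, with 1 point per gene, filled where the adjusted p was under 0.05, and a bar at each list's median. Of the members 4 of 8 points are filled and lie left of 0, and the list of genes with AP-1 sites has filled points on both sides, 10 lower and 3 higher.

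Markers of some cell types differed between these groups. Between benzamil and DMSO, 0 of 4 tested keratinocyte markers and 0 of 4 tested fibroblast markers were called. Tested markers of T cells, dendritic and Langerhans cells, cartilage, adipocytes and blood were not called in that comparison either. Relative to untreated skin, all 4 tested keratinocyte markers were called higher with DMSO, and all 4 tested fibroblast markers lower. The T cell marker Thy1 and the adipocyte marker Fabp4 were also called lower there. Of all genes tested, 9.88% were called higher and 8.48% lower in that comparison. Keratinocyte markers Krt5, Krt14, Krt1 and Krt10 were present in every library, with summed levels of 25531 to 29150 CPM with benzamil, 23994 to 31299 CPM with DMSO, and 8138 and 9267 CPM in untreated skin. Skeletal muscle markers summed to 542 to 1231 CPM with benzamil, 145 to 885 CPM with DMSO, and 2327 and 2427 CPM in untreated skin. Of these 7 muscle genes, 6 were called higher with benzamil than with DMSO, and 6 lower with DMSO than in untreated skin. Fibroblast markers summed to 417 to 1220 CPM with benzamil, 367 to 777 CPM with DMSO, and 5769 and 13517 CPM in untreated skin. Of 7 neutrophil markers only Cxcr2 and Retnlg were listed, with summed levels of 6.32 to 19 CPM with benzamil, 31.4 to 93.6 CPM with DMSO, and 0 in untreated skin; Retnlg was at 0 in every benzamil library. Cxcr2, the only neutrophil marker tested, was called lower with benzamil than with DMSO (log2 fold change -1.88). It was called higher with DMSO than in untreated skin (7.13), and it passed the filter on low counts through the DMSO libraries alone. The part of these cell types in the members' differences was not tested. In whole skin, fewer cells of a type and less RNA per cell cannot be told apart.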

How the data were processed

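Total RNA of 10 mouse ear skin libraries was sequenced from a 3' mRNA kit with molecular identifiers, per the labels (500 ng of RNA, 150-cycle kit). STAR, featureCounts, DESeq2 and mm10 are named in the submitters' processing notes; their versions, the use of strand and any collapse of molecular identifiers are not given here, so intervals and floors cover counting error only. The authors deposited 2 tables of log2 values, named as variance-stabilised. They also deposited tables of their own comparisons, with a mean signal, log2 fold changes, a Wald score, p-values and adjusted p-values, and a table of counts whose 61533 identifiers are all human, which entered no comparison.

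The log2 values were inverted to reads: 100% of values were whole within 0.001 reads, and 39116 of 39116 DMSO values agreed between the tables, which were joined on 9779 genes. The lowest gene total in each table was 10 reads, so a gene with fewer is not listed. Because the deposited unit was log2 and not counts, limma (3.58.1) on those values was an alternative.

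edgeR (4.0.16) quasi-likelihood fits used all 10 libraries, TMM scaling and filterByExpr (minimum count 10, total 15), which left 5245 genes; p-values were adjusted by Benjamini-Hochberg over all of them. The SE of a log2 fold change is its size divided by the square root of F. Ratios of summed reads have exact 95% intervals. DESeq2 (1.42.0), other scalings, no filter, a replicate block and fits without each library were alternatives. The fits were tested on simulated data. In benzamil over DMSO, 57.4% of genes given a log2 fold change of 1 in size were called, and 82.8% at 2. The shares were 17.2% and 50.0% in DMSO over untreated, and 10.6% and 50.0% in benzamil over untreated. A missing call against untreated skin therefore does not exclude changes of this size. Coordinates are from GENCODE M21 on mm10. Every member the tables hold is named; other genes are named as called genes by size of fold change, up to 6 a list, except Egr1, which was chosen after its value was seen; 1 gene that this rule names is not reported here. The members and lists were chosen with earlier results of these data known.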

Additional observations from a re-analysis of the deposited data

Results flagged for a closer look

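Of 18 sets of library values examined (9 members with benzamil and 9 with DMSO), 2 were flagged. The rule compared the gap between 1 library and the others with the range, and chance flags about 1 set in 20. Fosl1 had 3.17 CPM, from 1 read, in benzamil library 2 and 0 in the other 3 benzamil libraries. A single read beside counts of 0 always gives a gap equal to the range, so the chance rate does not apply to Fosl1. A count of 0 in those 3 libraries allows 8.62 to 22.6 CPM, so benzamil library 2 cannot be called different. Ier3 had 63.2 CPM in DMSO library 4 and 115 to 124 CPM in the other 3 DMSO libraries.

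The deposited count table with human identifiers also held reads of the members' human counterparts, although all libraries are mouse. Over all 10 libraries it held 22 reads for BTG2, 43 for FOS, 15 for FOSL1, 5 for FOSL2, 5 for IER3, 265 for IER5, 142 for JUN, 21 for JUNB and 120 for JUND, and 0 for FOSB. All 21 reads of JUNB were in DMSO libraries. IER5 had 45 reads with benzamil, 218 with DMSO and 2 in untreated libraries, where the mouse table had 45, 243 and 2. How this table was made is not given in the sources used here.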

How the results depend on the processing

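For Junb and Fosl2 in benzamil over DMSO, direction and call were kept under all 16 alternatives. In limma on the deposited log2 values, a scale that compresses changes of low genes, the log2 fold change was -1.63 for Junb, -0.90 for Fosl2, -1.24 for Dusp6, -1.43 for Dusp7 and -0.78 for Phlda1, each still called. No member that was called changed direction under any alternative. Genes called in benzamil over DMSO numbered 1154, and 659 to 1109 on leaving out each library; members called numbered 4, and 2 to 4. In DMSO over untreated 963 genes were called, 383 to 931 without each library and 1506 in limma (1057 higher, 449 lower); members called numbered 4, and 1 to 4 without each library. In benzamil over untreated 212 genes were called, and 88 to 182 without each library. Scaling by library totals alone moved the median of all genes by -0.24 in benzamil over DMSO and gave 269 higher and 979 lower genes, against 520 and 634; the members' median was then -1.19. In DMSO over untreated, DESeq2 gave 329 higher and 487 lower, against 518 and 445.

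Deviations from the group means correlated little between same-numbered benzamil and DMSO libraries (0.069, 0.001, 0.041 and 0.068). The DMSO libraries closest to benzamil libraries 1 to 4 were numbers 1, 1, 4 and 4. Counting error is large at this depth, so these correlations cannot decide whether the numbers pair the libraries. A replicate block gave 466 higher and 594 lower genes in benzamil over DMSO, 545 and 427 in DMSO over untreated, and 83 and 63 in benzamil over untreated, with the same counts of members called, 4, 4 and 0. Depth limits the untreated group most: 1 read there is 12.8 or 14.1 CPM.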
